A study of Homo sapiens with 12 samples.

Results

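Aminoacyl-tRNA synthetases, the enzymes that load each amino acid onto its tRNA, were followed as a set of 38 listed genes: 19 cytosolic enzymes, 16 mitochondrial enzymes and the 3 scaffold proteins AIMP1, AIMP2 and EEF1E1. Members were taken as every probe of the non-normalized intensity table whose annotated gene symbol was on the list. This gave 40 probes for 35 genes, out of 47231 probes on the array. The 35 genes were 18 cytosolic enzymes, all 16 mitochondrial enzymes and AIMP1. CARS1, AIMP2 and EEF1E1 were not analysed here. One further probe, the dimmer of the pair for FARSB, fell below the filter on dim probes and was not tested, so 39 probes were tested and all 35 genes kept a tested probe. Where a gene had several probes, the brightest over all arrays stood for it.

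The 12 Illumina BeadChip arrays came from K562, a human erythroleukemia cell line, in 4 groups of 3. They were AE9a-expressing cells with an siRNA against PRMT1 (AE9a siPRMT1), AE9a-expressing cells with a control siRNA (AE9a control), wild type cells with the PRMT1 siRNA (wild type siPRMT1) and wild type cells with the control siRNA (wild type control). PRMT1 is the main arginine methyltransferase of human cells. AE9a is a shortened splice variant of AML1-ETO, a fusion of a transcription factor to a corepressor that occurs in acute myeloid leukemia. In every group 3 µg of siRNA was introduced by nucleofection and the cells were taken after 24 hours. The sources used here do not say how AE9a was introduced or whether the AE9a cells are 1 clone, so an effect of AE9a and any other difference between the lines cannot be told apart. Nor do they say that replicates came from separate cultures; p-values therefore reflect only how far these arrays spread, and that spread may be technical.

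In animal cells the cytosol and the mitochondria keep largely separate sets of synthetases, both encoded in the nucleus, with the mitochondrial proteins imported after translation. By convention the symbols of the mitochondrial enzymes end in 2. GARS1 and KARS1 are exceptions, each encoding the enzyme of both compartments from 1 gene. Mitochondria have no glutaminyl-tRNA synthetase; there EARS2 charges the glutamine tRNA with glutamate, which an amidotransferase made of QRSL1, GATB and GATC converts. Several cytosolic enzymes sit together with AIMP1, AIMP2 and EEF1E1 in the multisynthetase complex. Uncharged tRNA activates the kinase GCN2 (EIF2AK4), whose signal raises translation of the transcription factor ATF4. Genes for several cytosolic synthetases are known targets of ATF4, along with ASNS, PHGDH and other amino acid enzymes, in what is called the integrated stress response.

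Because ATF4 binds with C/EBP partners to the C/EBP-ATF response element, the promoters of the listed genes were searched for its core letters TGATGNAA, or TTNCATCA on the other strand. The windows ran from 250 bases before to 50 bases after each gene start in RefSeq's annotation of GRCh38.p14. A window was found for 33 of the 38 listed genes, and none was found for LARS1, VARS1, YARS1, AARS2 and VARS2. The letters occurred in 7 of 16 cytosolic genes with a window (43.8%), in 1 of 14 mitochondrial genes (7.14%) and in 0 of 3 scaffold genes. They occurred in 1270 of all 35116 windows (3.62%) and in 1217 of 27305 genes with a window (4.46%). The 8 holders among the listed genes were AARS1, CARS1, GARS1, IARS1, MARS1, NARS1 and TARS1 of the cytosolic genes and YARS2 of the mitochondrial genes. A match is a description of these letters and does not show a bound site.

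The promoters below belong to the holders whose expression passed the test in AE9a cells after PRMT1 siRNA, and capitals mark the core letters. All are written 5′ to 3′ on the gene's own strand, and the position given is that of the first capital, counted from the gene start taken as 0. The letters of AARS1 lie at -187 in chr16:70289457-70289756 (minus strand), and those of GARS1 at -33 in chr7:30594628-30594927 (plus strand). Those of MARS1 lie at -4 in chr12:57487818-57488117 (plus strand) and those of IARS1 at -13 in chr9:92293648-92293947 (minus strand). YARS2 holds them at -197 in chr12:32755848-32756147 (minus strand). In AARS1, MARS1 and IARS1 the 8 letters are identical, TTGCATCA.
AARS1: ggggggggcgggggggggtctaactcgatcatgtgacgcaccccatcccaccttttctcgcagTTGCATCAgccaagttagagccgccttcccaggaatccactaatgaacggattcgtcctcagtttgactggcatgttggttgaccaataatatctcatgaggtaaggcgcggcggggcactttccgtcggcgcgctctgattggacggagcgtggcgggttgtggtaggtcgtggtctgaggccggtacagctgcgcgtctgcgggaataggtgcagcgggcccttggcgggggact
GARS1: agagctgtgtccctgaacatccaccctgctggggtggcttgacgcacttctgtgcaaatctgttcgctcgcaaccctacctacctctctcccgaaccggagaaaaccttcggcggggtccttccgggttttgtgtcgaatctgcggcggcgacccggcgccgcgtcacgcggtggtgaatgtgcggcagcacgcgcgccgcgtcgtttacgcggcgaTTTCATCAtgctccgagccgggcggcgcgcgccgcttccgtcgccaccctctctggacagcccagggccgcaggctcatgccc
MARS1: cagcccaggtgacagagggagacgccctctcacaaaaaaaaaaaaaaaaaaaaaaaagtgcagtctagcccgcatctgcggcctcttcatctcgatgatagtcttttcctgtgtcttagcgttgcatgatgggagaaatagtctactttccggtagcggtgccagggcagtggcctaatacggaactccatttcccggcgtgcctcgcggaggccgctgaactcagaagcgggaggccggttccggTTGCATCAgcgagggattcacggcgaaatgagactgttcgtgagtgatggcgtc
IARS1: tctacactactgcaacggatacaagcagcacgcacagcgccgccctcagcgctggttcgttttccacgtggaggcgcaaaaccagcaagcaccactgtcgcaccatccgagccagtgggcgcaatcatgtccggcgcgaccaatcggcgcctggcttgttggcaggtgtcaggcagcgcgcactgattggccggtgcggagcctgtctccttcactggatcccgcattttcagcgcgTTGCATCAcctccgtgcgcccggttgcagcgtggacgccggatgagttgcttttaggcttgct
YARS2: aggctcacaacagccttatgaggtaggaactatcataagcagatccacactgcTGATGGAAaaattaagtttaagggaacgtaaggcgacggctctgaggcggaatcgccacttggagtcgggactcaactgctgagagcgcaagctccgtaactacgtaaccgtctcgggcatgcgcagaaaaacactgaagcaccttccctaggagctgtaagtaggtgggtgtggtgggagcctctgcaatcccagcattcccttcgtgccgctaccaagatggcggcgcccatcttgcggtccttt

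The median raw intensity per array lay between 60.5 and 74.3. With no detection p-values in the table, the 95th percentile of 457 olfactory receptor probes, genes hardly transcribed outside sensory tissue, stood in for background and lay between 68.0 and 81.3. The probes used for all 34 measured enzymes exceeded it on all 12 arrays, and the AIMP1 probe did so on 11. Of the erythroid markers expected in K562, all 10 measured exceeded it on all 12 arrays, while MPO, ELANE, CSF1R, CD3E, KRT5, KRT14, CDH1 and COL3A1 exceeded it on 0 arrays. Of the other lymphoid, granulocyte, monocyte, epithelial and fibroblast markers measured, EPCAM, CD3D and CD79B were above it on all 12 arrays, CD79A, CD14 and LYZ on 10, COL1A1 and COL1A2 on 7, AZU1 on 3 and MS4A1 on 2. Wild type control 3 stood apart: on the second principal component of all tested probes it scored -15.8, against 21.9 and 21.7 for the other wild type controls, and the 3 wild type siPRMT1 arrays scored between -18.0 and -0.45.

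PRMT1, the siRNA's target, read 8.89, 8.94 and 9.16 in AE9a siPRMT1 arrays and 9.63, 9.68 and 9.50 in AE9a controls, in log2 normalised intensity. In wild type cells it read 10.22, 10.06 and 9.80 under siPRMT1 and 10.22, 10.43 and 10.83 under control siRNA. The groups were apart in AE9a cells and overlapped in wild type cells. PRMT1 fell by 0.61 ± 0.16 in AE9a cells (log2 fold change ± SE, adjusted p = 0.021), a call that did not hold without either AE9a control 1 or 2 or without either AE9a siPRMT1 1 or 2. In wild type cells its fold change was -0.46 ± 0.16 and did not pass (adjusted p = 0.487). The knockdown was not shown to differ between the lines (-0.14 ± 0.23, 95% interval -0.63 to 0.34, adjusted p = 0.852). The lines differed in PRMT1 itself, which was lower in AE9a cells under control siRNA (-0.89 ± 0.16, adjusted p = 7.75e-04) and under PRMT1 siRNA (-1.03 ± 0.16, adjusted p = 2.53e-04).

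In AE9a cells, most cytosolic synthetases that changed after PRMT1 siRNA fell, and most mitochondrial ones that changed rose. Fold changes are given on the log2 scale with their SE. The tryptophanyl enzyme WARS1 fell by 1.29 ± 0.12, the alanyl enzyme AARS1 by 1.12 ± 0.10, the glycyl enzyme GARS1 by 0.85 ± 0.12 and the methionyl enzyme MARS1 by 0.85 ± 0.15. MARS2, the mitochondrial methionyl enzyme, rose by 1.20 ± 0.16. Of 18 cytosolic enzymes, 9 fell, 1 rose and 8 did not pass at an adjusted p of 0.05; of 16 mitochondrial enzymes, 1 fell, 4 rose and 11 did not pass. Over all 13929 tested genes, 17.5% were called, 9.51% lower and 7.98% higher. With 1 array left out, 8 to 12 cytosolic and 1 to 6 mitochondrial enzymes were called, so the mitochondrial count rested on single arrays. In the fit without a replicate block, no mitochondrial enzyme passed the test of the difference between the lines. These are bulk samples, in which fewer cells of a kind and less RNA per cell cannot be told apart. The median log2 fold change was -0.39 for the cytosolic enzymes, 0.23 for the mitochondrial enzymes and 0.01 for all tested genes.

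WARS1 read 10.97, 11.19 and 10.95 in AE9a siPRMT1 arrays, against 12.47, 12.23 and 12.29 in AE9a controls (log2 normalised intensity; adjusted p = 3.55e-05). AARS1 read 12.75, 12.80 and 12.67 in AE9a siPRMT1 arrays, against 13.85, 13.90 and 13.83 in AE9a controls (adjusted p = 1.69e-05). The AE9a siPRMT1 arrays were low for both genes, and the groups were apart by more than the range within either. GARS1, which charges glycine in both compartments, read 12.46, 12.71 and 12.67 in AE9a siPRMT1 arrays, against 13.53, 13.39 and 13.49 in AE9a controls (adjusted p = 7.53e-04). MARS1, whose product loads initiator and elongator tRNAs with methionine, read 11.03, 11.08 and 11.14 in AE9a siPRMT1 arrays, against 11.81, 12.04 and 11.95 in AE9a controls (adjusted p = 0.00265). The seryl enzyme SARS1 read 10.85, 10.91 and 11.01 in AE9a siPRMT1 arrays, against 11.75, 11.81 and 11.69 in AE9a controls (fell by 0.83 ± 0.13, adjusted p = 0.00134). For these 3 genes too every AE9a siPRMT1 array lay below every AE9a control. The tyrosyl enzyme YARS1 read 12.50, 12.45 and 12.51 in AE9a siPRMT1 arrays, against 13.25, 13.30 and 13.24 in AE9a controls (fell by 0.78 ± 0.11, adjusted p = 7.57e-04). EPRS1, a single protein that charges both glutamate and proline, fell by 0.62 ± 0.11 (adjusted p = 0.00218). The isoleucyl enzyme IARS1 fell by 0.53 ± 0.11 (adjusted p = 0.00534) and the glutaminyl enzyme QARS1 by 0.42 ± 0.12 (adjusted p = 0.0323).

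**Figure D1:**
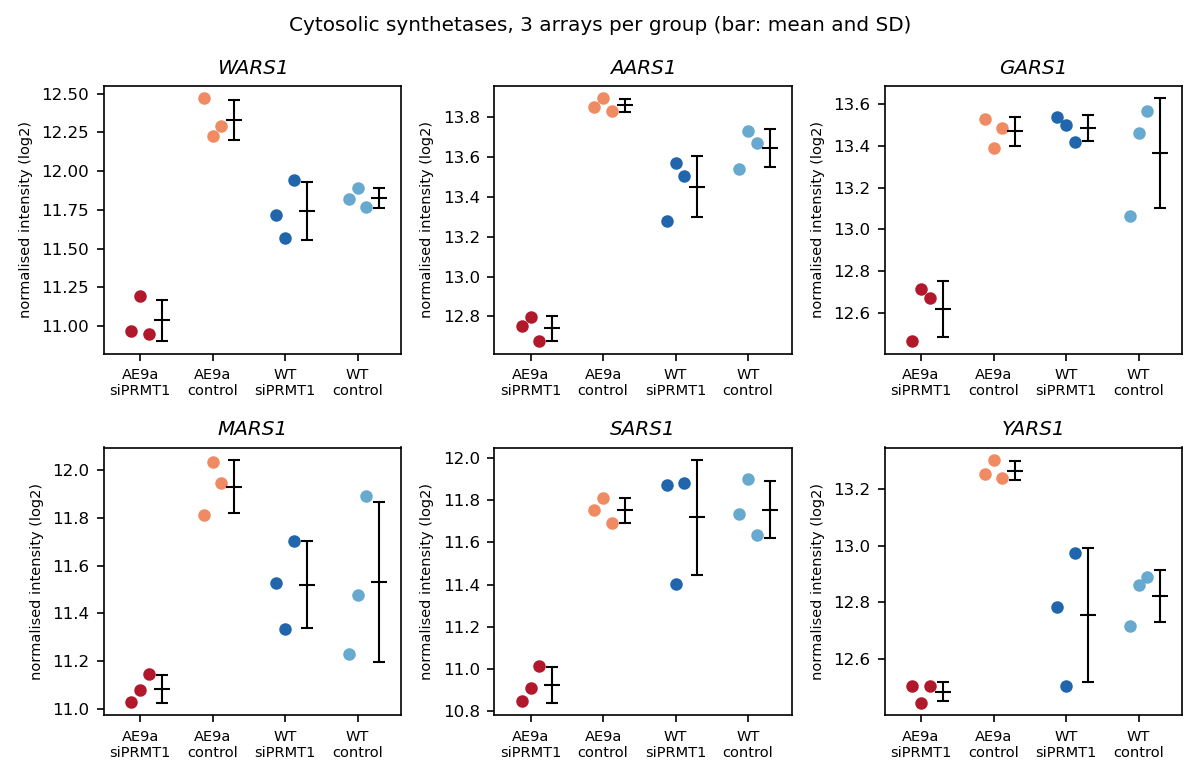
Log2 normalised intensity (vertical axis, range differing between panels) of the 6 cytosolic synthetases with the largest falls in AE9a cells, 1 point per array, 3 arrays per group, with the group's mean and SD beside the points. In each panel the 3 AE9a siPRMT1 arrays lie below the 3 AE9a controls, while the wild type siPRMT1 arrays overlap the wild type controls.

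The other cytosolic enzymes ran from -0.36 to 0.40. FARSA, the catalytic subunit of the phenylalanyl enzyme, was the cytosolic gene that rose (0.40 ± 0.12, adjusted p = 0.045), while its partner subunit FARSB stood at 0.10 ± 0.25 (adjusted p = 0.873). FARSA read 9.10, 9.21 and 9.35 in AE9a siPRMT1 arrays, against 8.89, 8.82 and 8.76 in AE9a controls, which do not overlap. A further 3 enzymes missed the threshold: TARS1 at -0.34 ± 0.11 (adjusted p = 0.0505), LARS1 at -0.35 ± 0.12 (adjusted p = 0.0807) and NARS1 at -0.36 ± 0.13 (adjusted p = 0.0815). KARS1, which serves both compartments as GARS1 does, stood at 0.21 ± 0.11 (adjusted p = 0.28). AE9a siPRMT1 and control arrays did not overlap for 12 cytosolic enzymes on the lower side and 4 on the higher side. The same held for 22.6% and 21.9% of all tested genes.

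Enzymes that fell lay both inside and outside the multisynthetase complex. Of its 7 measured cytosolic enzymes (EPRS1, IARS1, KARS1, LARS1, MARS1, QARS1 and RARS1), 4 fell and 0 rose, with a median of -0.42. Of the 11 measured cytosolic enzymes outside it, 5 fell and 1 rose, with a median of -0.36. Its scaffold protein AIMP1 read 6.82, 6.58 and 6.61 in AE9a siPRMT1 arrays, against 6.51, 6.53 and 6.46 in AE9a controls (0.17 ± 0.10, adjusted p = 0.303). No test compared complex members with the other enzymes. Of the 8 cytosolic enzymes that fell and have a promoter window, 4 held the C/EBP-ATF letters, against 2 of the 7 measured cytosolic enzymes that did not fall and have one. WARS1, SARS1, EPRS1 and QARS1 fell and hold no match in their windows.

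MARS2 had the largest rise of any measured synthetase. It read 8.88, 8.98 and 9.21 in AE9a siPRMT1 arrays, against 7.72, 7.95 and 7.78 in AE9a controls (adjusted p = 5.22e-04). Its second probe rose as well, by 0.69. MARS2 thus rose while MARS1, the cytosolic enzyme for the same amino acid, fell. YARS2, the mitochondrial tyrosyl enzyme, read 9.80, 9.79 and 9.91 in AE9a siPRMT1 arrays, against 9.26, 9.05 and 9.16 in AE9a controls (0.68 ± 0.19, adjusted p = 0.0274). It too rose while its cytosolic counterpart YARS1 fell.

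The glutamyl enzyme EARS2 read 9.02, 9.35 and 9.27 in AE9a siPRMT1 arrays, against 8.67, 8.65 and 8.58 in AE9a controls (0.58 ± 0.14, adjusted p = 0.0119). The leucyl enzyme LARS2 read 8.49, 8.43 and 8.73 in AE9a siPRMT1 arrays, against 8.04, 7.90 and 7.99 in AE9a controls (0.58 ± 0.17, adjusted p = 0.0418). Both were higher in every AE9a siPRMT1 array. VARS2, the mitochondrial valyl enzyme, was the exception among the called genes, at 9.82, 9.62 and 9.63 in AE9a siPRMT1 arrays against 10.12, 10.44 and 10.35 in AE9a controls (fell by 0.61 ± 0.16, adjusted p = 0.0195). The 11 mitochondrial enzymes that did not pass ran from -0.19 (SARS2) to 0.39 (FARS2, adjusted p = 0.0567).

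**Figure D2:**
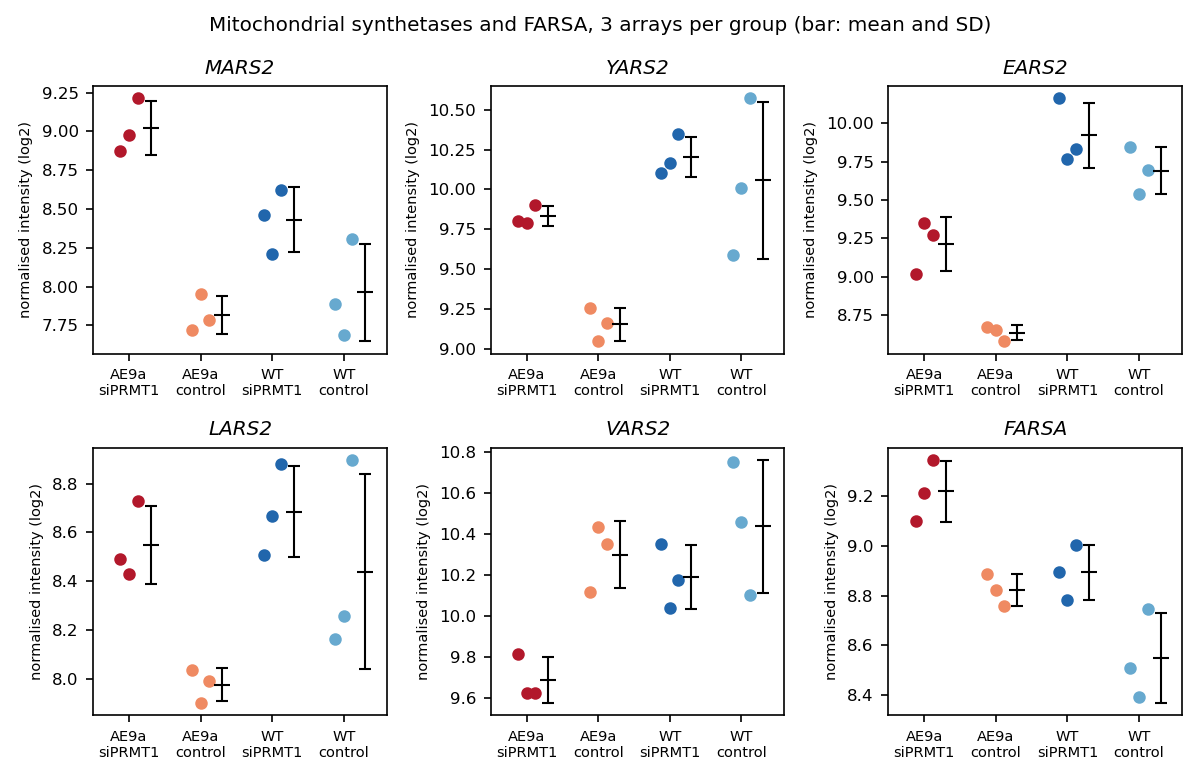
Log2 normalised intensity (vertical axis, range differing between panels) of the 5 mitochondrial synthetases and of FARSA that changed in AE9a cells, 1 point per array, 3 arrays per group, with the group's mean and SD. MARS2, YARS2, EARS2, LARS2 and FARSA are higher in all 3 AE9a siPRMT1 arrays than in the AE9a controls and VARS2 is lower; EARS2 is lower in AE9a cells than in wild type cells under either siRNA.

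Calls differed in how far they rested on single arrays. In all, 9 of the 15 calls in AE9a cells (AARS1, EPRS1, GARS1, IARS1, MARS1, SARS1, WARS1, YARS1 and MARS2) held without any 1 array and in every other setting tried. The other 6 (FARSA, QARS1, EARS2, LARS2, VARS2 and YARS2) were lost without some array. The count of mitochondrial enzymes, 5 with all arrays, came to 1 without AE9a control 3, AE9a siPRMT1 2 or AE9a siPRMT1 3, to 2 without AE9a control 2 and to 3 without AE9a control 1 or AE9a siPRMT1 1. The count of cytosolic enzymes, 10 with all arrays, stayed between 8 and 12 whichever array was left out. The second probe of WARS1 fell as well, by 1.36. The dim second probe of IARS1, above the olfactory receptor level on 3 arrays, stood at -0.31 and did not pass (adjusted p = 0.12). The dim second probe of VARS1, above that level on 0 arrays, stood at -0.03 where the brighter probe stood at 0.17, and neither passed.

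In wild type cells no synthetase passed after PRMT1 siRNA. In limma's fit 0 of 13929 genes were called (0%), 2470 of 28338 probes had an unadjusted p under 0.05, and the smallest adjusted p was 0.138. Cytosolic enzymes ran from -0.20 (AARS1) to 0.34 (FARSA) with a median of 0.02. Mitochondrial enzymes ran from -0.25 (VARS2) to 0.47 (MARS2) with a median of 0.13. WARS1 read 11.71, 11.57 and 11.94 in wild type siPRMT1 arrays, against 11.82, 11.89 and 11.77 in wild type controls (-0.08 ± 0.12, adjusted p = 0.87). AARS1 read 13.28, 13.57 and 13.50 in wild type siPRMT1 arrays, against 13.54, 13.73 and 13.67 in wild type controls (-0.20 ± 0.10, adjusted p = 0.589). GARS1 read 13.54, 13.50 and 13.42 in wild type siPRMT1 arrays, against 13.06, 13.46 and 13.57 in wild type controls (0.12 ± 0.12, adjusted p = 0.808). The wild type groups overlapped for all 3 genes. Wild type siPRMT1 and control arrays did not overlap for 2 cytosolic enzymes (both higher) and 1 mitochondrial enzyme (higher), and for 4.74% (higher) and 5.18% (lower) of all tested genes.

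MARS2, FARSA and AARS1 had the smallest p among the members in wild type cells. MARS2 read 8.46, 8.21 and 8.62 in wild type siPRMT1 arrays, against 7.89, 7.69 and 8.31 in wild type controls (0.47 ± 0.16, adjusted p = 0.496). FARSA read 8.90, 8.78 and 9.002 in wild type siPRMT1 arrays, against 8.51, 8.39 and 8.75 in wild type controls (0.34 ± 0.12, adjusted p = 0.503). For MARS2 wild type control 3 lay within the range of the siPRMT1 arrays, while for FARSA the groups did not overlap. Without wild type control 3, 840 probes were called and MARS2 was the 1 member that passed (0.64, adjusted p = 0.0388), while no cytosolic enzyme did. This array was singled out from the same data, where it scored among the wild type siPRMT1 arrays on the second principal component. It was also the highest wild type control for MARS2, so leaving it out widens that contrast. No conclusion is drawn from this pass. A block for replicate number within wild type arrays gave 14 called probes in wild type cells, and 0 of them were members.

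**Figure D3:**
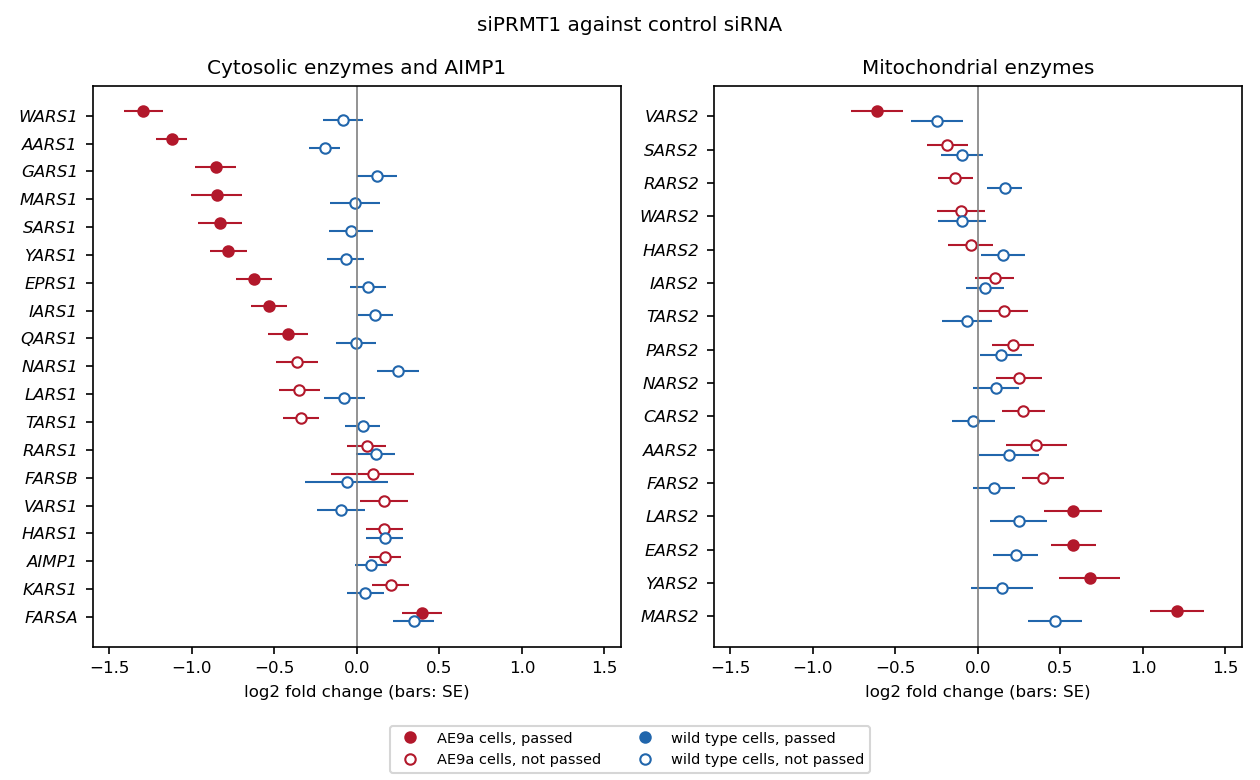
Log2 fold change of siPRMT1 against control siRNA (horizontal axis, bars are the SE) for each measured synthetase gene and AIMP1, in AE9a cells (red) and wild type cells (blue), 3 arrays per group; filled points passed an adjusted p of 0.05. The AE9a values spread from -1.29 (WARS1) to 1.20 (MARS2), and the wild type values from -0.25 (VARS2) to 0.47 (MARS2) with none filled.

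The fall was larger in AE9a than in wild type cells for 3 cytosolic enzymes by the test of the difference itself. The siPRMT1 effect in AE9a minus that in wild type cells was -1.21 ± 0.17 for WARS1 (adjusted p = 0.00477), -0.98 ± 0.17 for GARS1 (adjusted p = 0.0187) and -0.93 ± 0.14 for AARS1 (adjusted p = 0.0061). No mitochondrial enzyme passed, and 15 cytosolic enzymes did not. Over all genes 1.15% were called, 0.761% with a more negative and 0.388% with a more positive effect in AE9a cells. The median difference was -0.51 for the cytosolic enzymes, 0.15 for the mitochondrial enzymes and 0.00 for all tested genes. The GARS1 call was lost without any 1 of 5 arrays (adjusted p up to 0.0639), while those of WARS1 and AARS1 held without each array in turn. Without wild type control 3, 4 cytosolic enzymes passed, MARS1 being the additional one (-1.02, adjusted p = 0.0141). That array was singled out from these data and was the highest wild type control for MARS1 (11.89, against 11.23 and 11.48). Leaving it out moves the MARS1 difference in that direction, so no conclusion is drawn from the additional call.

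With replicate number as a block within wild type arrays, the differences of 9 cytosolic enzymes passed in place of 3. Calls over all probes rose with it, to 1241 of 28338 with the block, against 260 without it, so the gain was not limited to the synthetases. The additional genes were MARS1 (adjusted p = 0.00895), YARS1 (0.0100), EPRS1 (0.0159), IARS1 (0.0212), SARS1 (0.0233) and NARS1 (0.0438), all more negative in AE9a cells. In the fit without the block these genes had adjusted p between 0.051 (EPRS1) and 0.149 (NARS1). Under the same block MARS2 passed with a more positive effect in AE9a cells (0.74, adjusted p = 0.0199), against an adjusted p of 0.169 without it. Pairing by replicate number was not established in wild type arrays, so no conclusion is drawn from the added calls. A block for replicate number over all arrays gave 6 cytosolic enzymes.

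**Figure D4:**
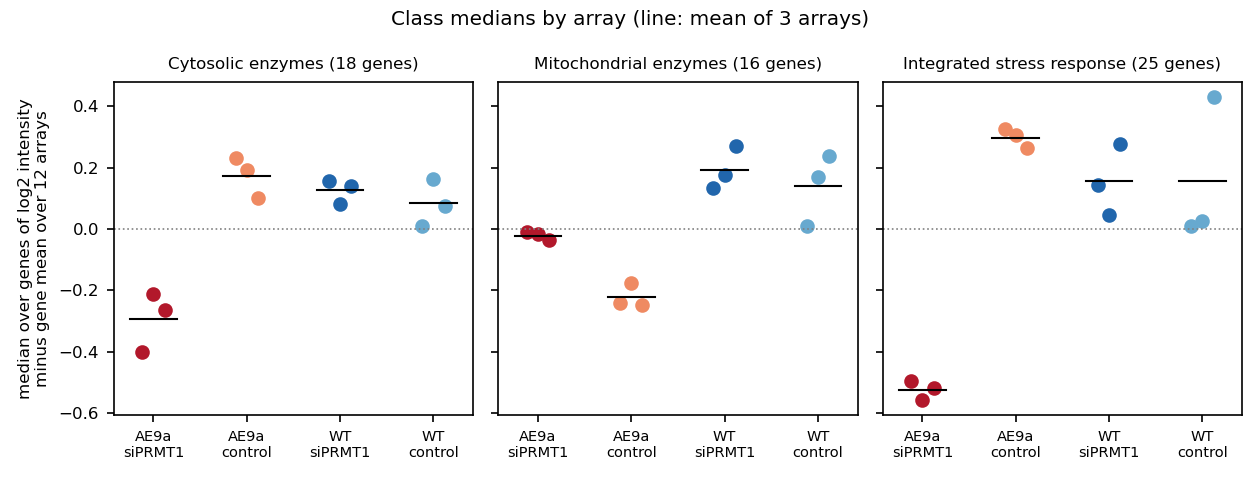
Median over genes of log2 intensity minus the gene's mean over the 12 arrays (vertical axis), 1 point per array, for the cytosolic enzymes, the mitochondrial enzymes and the integrated stress response genes, with a line at the mean of each group's 3 arrays. The AE9a siPRMT1 arrays are the lowest of the 12 for the cytosolic and stress response genes, and the AE9a controls are the lowest for the mitochondrial enzymes; wild type control 3 is high for the stress response genes.

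Seen array by array, the 2 classes of enzyme were ordered differently over the 4 groups. The cytosolic median, each gene centred on its mean over the 12 arrays, was -0.29 ± 0.10 in AE9a siPRMT1 arrays and 0.17 ± 0.07 in AE9a controls, and 0.13 ± 0.04 in wild type siPRMT1 arrays and 0.08 ± 0.08 in wild type controls (log2, mean ± SD, n = 3 each). The mitochondrial median was -0.02 ± 0.01 in AE9a siPRMT1 arrays and -0.22 ± 0.04 in AE9a controls, and 0.19 ± 0.07 in wild type siPRMT1 arrays and 0.14 ± 0.12 in wild type controls. The AE9a siPRMT1 group was therefore the low one for the cytosolic enzymes, and the AE9a control group the low one for the mitochondrial enzymes. These medians carry no test.

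Genes of the integrated stress response fell in the same AE9a comparison. Of 27 listed, 25 were tested, 17 fell and 0 rose, with a median of -0.81, against 9.51% lower and 7.98% higher over all tested genes. The transcription factor ATF4 fell by 0.60 ± 0.12 (adjusted p = 0.00441), its partner CEBPG by 1.27 ± 0.12 (adjusted p = 4.49e-05) and DDIT3, a transcription factor downstream of ATF4, by 1.43 ± 0.19 (adjusted p = 3.96e-04). ATF4 read 13.59, 13.50 and 13.66 in AE9a siPRMT1 arrays, against 14.13, 14.24 and 14.20 in AE9a controls, which do not overlap. TRIB3, a pseudokinase induced by ATF4, fell by 1.67 ± 0.28 (adjusted p = 0.00172). ASNS read 11.91, 11.91 and 11.92 in AE9a siPRMT1 arrays, against 13.64, 13.63 and 13.63 in AE9a controls. The kinase gene EIF2AK4 stood at 0.38 ± 0.45 and did not pass (adjusted p = 0.685). In wild type cells 0 of the 25 passed (median 0.03), and the siPRMT1 effect was more negative in AE9a cells for 11 of the 25, ASNS, DDIT3 and TRIB3 among them, against 0.761% of all tested genes. ATF4 was not one of them (-0.75 ± 0.17, adjusted p = 0.0527), except under the block within wild type arrays (adjusted p = 0.00702), whose pairing was not established. Whether these genes have a part in the change of the synthetases was not tested.

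For proteins that handle charged tRNA the counts were near the background. Of 20 listed, 17 were tested, 2 fell, 2 rose and 13 did not pass in AE9a cells, with a median of 0.09; over all tested genes 9.51% fell and 7.98% rose. XPOT, which exports tRNA from the nucleus, fell by 1.30 ± 0.24 (adjusted p = 0.00347), at 8.55, 8.02 and 7.23 in AE9a siPRMT1 arrays against 9.22, 9.20 and 9.29 in AE9a controls, so the AE9a siPRMT1 arrays were low but spread. GATC, a subunit of the mitochondrial amidotransferase, rose by 0.80 ± 0.17 (adjusted p = 0.00612), at 7.82, 7.80 and 8.01 in AE9a siPRMT1 arrays against 7.19, 7.19 and 6.86 in AE9a controls. The other amidotransferase subunits stood at 0.10 ± 0.12 (GATB, adjusted p = 0.661) and 0.09 ± 0.08 (QRSL1, adjusted p = 0.512), and neither passed. TSFM, a mitochondrial elongation factor, rose by 0.57 ± 0.17 and EEF1G, a cytosolic elongation factor subunit, fell by 0.31 ± 0.09. Of 14 tested genes in the amino acid sensing pathway of mTORC1 (15 listed), 2 rose and 0 fell, beside 7.98% higher and 9.51% lower over all tested genes. Those that rose were LAMTOR4 (by 0.37 ± 0.11) and LAMTOR3 (by 0.35 ± 0.11).

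Enzymes of both classes were called between AE9a and wild type cells that had received the control siRNA. Under control siRNA, 4 of 18 cytosolic enzymes were higher in AE9a cells, 3 lower and 11 did not pass, and 1 of 16 mitochondrial enzymes was higher, 6 lower and 9 did not pass. Of all tested genes 33.3% were called, 16.3% higher and 17.1% lower, so most of these counts are near the background, and the 6 of 16 mitochondrial enzymes that were lower stand against 17.1%. The median was 0.11 for the cytosolic enzymes, -0.27 for the mitochondrial enzymes and -0.02 for all tested genes. AE9a and wild type controls did not overlap for 7 cytosolic enzymes on the higher and 3 on the lower side, and for 1 and 8 mitochondrial enzymes, against 22.2% (higher) and 23.9% (lower) of all tested genes. This comparison shares the AE9a controls with the knockdown comparison in AE9a cells, so a high or low AE9a control group moves both.

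EARS2 was the synthetase with the largest difference, at 8.67, 8.65 and 8.58 in AE9a controls against 9.84, 9.54 and 9.69 in wild type controls (-1.06 ± 0.14, adjusted p = 4.73e-05). YARS2 read 9.26, 9.05 and 9.16 in AE9a controls, against 9.59, 10.01 and 10.57 in wild type controls (-0.90 ± 0.19, adjusted p = 0.00237). Every AE9a control was below every wild type control for both, although the wild type controls of YARS2 were widely spread. The cysteinyl enzyme CARS2 read 7.50, 7.42 and 7.79 in AE9a controls, against 8.34, 8.32 and 8.19 in wild type controls (-0.71 ± 0.13, adjusted p = 9.49e-04). The asparaginyl enzyme NARS2 read 8.78, 8.84 and 8.90 in AE9a controls, against 9.21, 9.60 and 9.56 in wild type controls (-0.62 ± 0.14, adjusted p = 0.00431). IARS2 (-0.50 ± 0.12, adjusted p = 0.00526) and FARS2 (-0.49 ± 0.13, adjusted p = 0.0101) were lower too, and RARS2 was the mitochondrial enzyme that was higher (0.37 ± 0.11, adjusted p = 0.0172).

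NARS1, the cytosolic asparaginyl enzyme, went the other way from NARS2. It read 13.43, 13.23 and 13.26 in AE9a controls, against 12.45, 12.52 and 12.57 in wild type controls (0.80 ± 0.13, adjusted p = 3.29e-04). WARS1 (0.50 ± 0.12, adjusted p = 0.0063), YARS1 (0.44 ± 0.11, adjusted p = 0.00895) and QARS1 (0.40 ± 0.12, adjusted p = 0.0238) were also higher in AE9a controls. KARS1 read 9.80, 9.96 and 9.89 in AE9a controls, against 10.28, 10.61 and 10.46 in wild type controls (-0.57 ± 0.11, adjusted p = 0.00182). VARS1 (-0.52 ± 0.14, adjusted p = 0.0146) and TARS1 (-0.34 ± 0.11, adjusted p = 0.03) were lower. GARS1 stood at 0.11 ± 0.12 (adjusted p = 0.608) and AIMP1 at -0.19 ± 0.10 (adjusted p = 0.18). The dim second probes differed from the brighter ones: that of IARS1 was higher in AE9a cells (0.48, adjusted p = 0.00969) where the brighter probe did not pass, and that of VARS1 stood at 0.06 and did not pass. The calls of QARS1, TARS1, VARS1, FARS2 and RARS2 were lost in at least 1 of the settings or without at least 1 array.

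Under PRMT1 siRNA the cytosolic enzymes that differed were all lower in AE9a cells. Of 18 cytosolic enzymes 0 were higher, 9 lower and 9 did not pass; of 16 mitochondrial enzymes 1 was higher, 7 lower and 8 did not pass. The background was 30.8% of all tested genes, 14.6% higher and 16.2% lower. The medians were -0.39 for the cytosolic enzymes, -0.32 for the mitochondrial enzymes and -0.01 for all tested genes. The siPRMT1 arrays of the lines did not overlap for 1 cytosolic enzyme on the higher and 13 on the lower side, and for 2 and 10 mitochondrial enzymes, against 21.4% (higher) and 24.4% (lower) of all tested genes. GARS1 had the largest difference (-0.87 ± 0.12, adjusted p = 1.19e-04), with 12.46, 12.71 and 12.67 in AE9a siPRMT1 arrays against 13.54, 13.50 and 13.42 in wild type siPRMT1 arrays. SARS1 read 10.85, 10.91 and 11.01 in AE9a siPRMT1 arrays, against 11.87, 11.40 and 11.88 in wild type siPRMT1 arrays (-0.79 ± 0.13, adjusted p = 4.75e-04). TARS1, the threonyl enzyme, read 11.61, 11.81 and 11.93 in AE9a siPRMT1 arrays, against 12.61, 12.51 and 12.37 in wild type siPRMT1 arrays (-0.71 ± 0.11, adjusted p = 2.02e-04). In all 3 genes every AE9a siPRMT1 array was below every wild type siPRMT1 array.

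AARS1 read 12.75, 12.80 and 12.67 in AE9a siPRMT1 arrays, against 13.28, 13.57 and 13.50 in wild type siPRMT1 arrays (-0.71 ± 0.10, adjusted p = 7.85e-05). WARS1 read 10.97, 11.19 and 10.95 in AE9a siPRMT1 arrays, against 11.71, 11.57 and 11.94 in wild type siPRMT1 arrays (-0.71 ± 0.12, adjusted p = 5.86e-04). For both genes the arrays of the lines did not overlap. EPRS1 (-0.62 ± 0.11, adjusted p = 6.65e-04), IARS1 (-0.45 ± 0.11, adjusted p = 0.00649) and KARS1 (-0.41 ± 0.11, adjusted p = 0.0151) were lower as well, and LARS1 was lower at an adjusted p of 0.0403. The dim second probe of IARS1 stood at -0.05 and did not pass. WARS1 was thus higher in AE9a than in wild type cells under control siRNA and lower under PRMT1 siRNA. EARS2 read 9.02, 9.35 and 9.27 in AE9a siPRMT1 arrays, against 10.16, 9.77 and 9.83 in wild type siPRMT1 arrays (-0.71 ± 0.14, adjusted p = 0.00146), with no overlap. VARS2, NARS2, IARS2, HARS2, CARS2 and SARS2 were lower by 0.37 to 0.50, with adjusted p between 0.0119 and 0.0437. MARS2 was the synthetase that was higher (0.59 ± 0.16, adjusted p = 0.0154). AIMP1 stood at -0.11 ± 0.10 (adjusted p = 0.509).

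KARS1 and TARS1 of the cytosolic enzymes and CARS2, EARS2, IARS2 and NARS2 of the mitochondrial enzymes were lower in AE9a cells under both siRNAs. These comparisons share no arrays, but they compare the same lines and share 1 estimate of the spread. Of all tested genes 17.1% were lower under control siRNA and 16.2% under PRMT1 siRNA, and the share lower under both was not counted. Among these enzymes only EARS2 held in every setting and without each array in both comparisons. No enzyme was higher under both. Of the 17 calls under PRMT1 siRNA, 7 held in every setting and without each array (AARS1, EPRS1, GARS1, SARS1, TARS1, WARS1 and EARS2). The mitochondrial enzymes called, 8 with all arrays, came to 3 without AE9a siPRMT1 2 or 3, to 4 without wild type siPRMT1 2 or 3 and to 5 without AE9a siPRMT1 1.

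Some markers of cell identity differed between the lines, where 33.3% of all tested genes were called under control siRNA and 30.8% under PRMT1 siRNA. Under control siRNA 3 of 10 measured K562 markers were higher in AE9a cells, 2 lower and 5 did not pass, and under PRMT1 siRNA 5 were higher, 1 lower and 4 did not pass. Of 4 tested lymphoid markers, CD79B was higher (0.64 ± 0.12) and CD3D lower (-1.41 ± 0.45) under control siRNA, and CD79B was higher (0.58 ± 0.12) under PRMT1 siRNA. Of 4 tested granulocyte and monocyte markers 1, LYZ, was higher under both siRNAs. Of 3 tested epithelial and fibroblast markers, EPCAM (-0.70 ± 0.13 and -0.67 ± 0.13) and COL1A2 were lower under both, and COL1A1 was higher under PRMT1 siRNA (0.28 ± 0.08). HBE1, embryonic globin, was higher in AE9a cells by 2.92 ± 0.11 under control siRNA and by 3.21 ± 0.11 under PRMT1 siRNA, and the lysozyme gene LYZ by 2.94 ± 0.16 and 3.42 ± 0.16. COL1A2 (-3.34 ± 0.13 and -3.84 ± 0.13) and LMO2 (-2.17 ± 0.16 and -1.16 ± 0.16) were lower. The summed raw intensity of the 10 measured K562 markers ran from 130339 to 134210 in AE9a siPRMT1 arrays and from 131660 to 140403 in AE9a controls, against 96372 to 101440 in wild type siPRMT1 arrays and 99500 to 105594 in wild type controls. Their part in the difference between the lines was not tested. Within AE9a cells LMO2 (0.54 ± 0.16) and TFRC (0.48 ± 0.14) rose after PRMT1 siRNA, and the other 8 measured K562 markers did not pass.

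**Figure D5:**
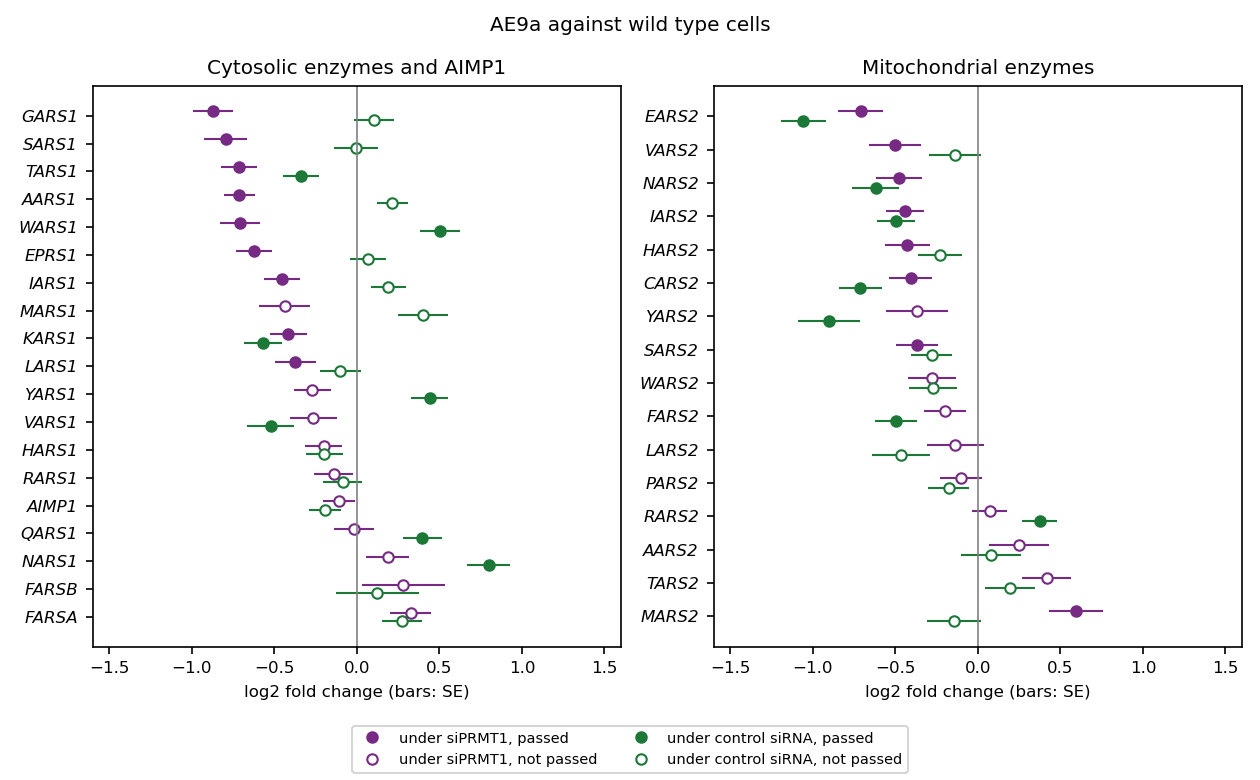
Log2 fold change of AE9a against wild type cells (horizontal axis, bars are the SE) for each measured synthetase gene and AIMP1, under PRMT1 siRNA (purple) and under control siRNA (green), 3 arrays per group; filled points passed an adjusted p of 0.05. GARS1, SARS1, AARS1, WARS1 and EPRS1 lie well below 0 under PRMT1 siRNA and at or above it under control siRNA, while EARS2, NARS2, IARS2 and CARS2 lie below 0 under both.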

How the data were processed

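Biotin-labelled cRNA from total RNA of 12 K562 samples was hybridised to Illumina BeadChips, per the labels' protocols, and titles gave the line, siRNA and replicate number of each. The authors deposited non-normalized bead intensities (1 value per probe and sample, without detection p-values) and a further table of processed intensity values that was used only as an alternative. Judged from the values, the deposited non-normalized intensities had no background subtracted. GenomeStudio is named in the submitters' processing notes; its version and role are not given in the sources used here.

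Intensities were corrected with normexp (offset 50), since detection p-values for neqc were lacking, and quantile normalized with limma 3.58.1 in R 4.3.3. Probes with a mean above the 40th percentile were tested, 28338 of 47231, for 13929 genes. Gene symbols came from the platform annotation, in which 30113 probes had 1 symbol, 8 had several and 17110 had none. A linear model with a mean for each group was fitted over the 12 arrays together, with eBayes and an intensity trend. The median total degrees of freedom, residual plus those that eBayes adds from all probes, was 13.8. P-values are two-sided and Benjamini-Hochberg adjusted over all tested probes, separately for the 5 contrasts, and an adjusted p of 0.05 was the threshold. Counts use the brightest probe per gene. The procedure was run on simulated data with noise drawn independently for each array. That simulation lacked the correlations between same-numbered arrays given below, so it cannot vouch for the calls here. The number of arrays limits the precision.

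The members, gene lists, complex members and promoter letters were chosen with earlier results of these data known. Up to 8 called members per direction with the largest fold changes were named in each contrast, and the 6 largest got every array's value; values of further members, such as IARS1 and QARS1, and array values of YARS1 and of the other members that passed in AE9a cells and are drawn by array, were added after they were seen. In each list EIF2AK4, ATF4, DDIT3, ASNS and TRIB3, and members with the smallest adjusted p, were named; CEBPG and TSFM were chosen after their values were seen.

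Deviations of same-numbered arrays from their group means correlated at 0.578, 0.283 and 0.536 between wild type siPRMT1 and control arrays. In AE9a cells they correlated at -0.203, -0.296 and 0.00065. Between the lines they correlated at 0.00328, 0.312 and 0.372 under siPRMT1 and at 0.204, 0.0441 and 0.0639 under control siRNA. Correlations between arrays of different numbers were not computed, so pairing in wild type arrays alone was not established. Alternatives changed the background correction, normalization, filter, spread estimate, array weights, arrays in the fit, pairing and probe choice, or left out 1 array.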

Additional observations from a re-analysis of the deposited data

Results flagged for a closer look

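The siPRMT1 effect differed between the lines, by the test of the difference itself, for 3 synthetases in the fit without a replicate block, where 1.15% of all tested genes were called. All 3 were counted as cytosolic, although GARS1 serves both compartments. With replicate number as a block within wild type arrays, a pairing that was not established, 9 cytosolic enzymes and the mitochondrial MARS2 passed. Calls over all probes rose as well, to 1241 of 28338 with the block, against 260 without it. The effect in AE9a minus that in wild type cells was, without the block, -1.21 on the log2 scale for WARS1, which fell by 1.29 in AE9a cells and stood at -0.08 in wild type cells. It was -0.98 for GARS1, which fell by 0.85 in AE9a cells and stood at 0.12 in wild type cells. It was -0.93 for AARS1, which fell by 1.12 in AE9a cells and stood at -0.20 in wild type cells. In limma's fit each passed an adjusted p of 0.05, and the GARS1 call was lost without any 1 of 5 arrays.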

How the results depend on the processing

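No value of a member or list changed sign with a call involved in any of the 12 settings that left out 1 array or the 12 other settings. Scaling to equal medians in place of quantile normalization put the medians after siPRMT1 in wild type cells at 0.11 for cytosolic and 0.21 for mitochondrial enzymes, and the mitochondrial median of the difference between lines at 0.0245. Under control siRNA it put AE9a against wild type at 0.21 for cytosolic and -0.20 for mitochondrial enzymes. Without the filter on dim probes, 5 mitochondrial enzymes were called in AE9a against wild type under PRMT1 siRNA. The count of cytosolic enzymes whose siPRMT1 effect differed between lines, 3 in the report, was 7 when probes had to exceed the olfactory receptor percentile on 3 or more arrays, 7 without the intensity trend, 6 with array weights and 5 with the mean of a gene's probes. It was 6 with replicate number as a block over all arrays, and 9, with 1 mitochondrial enzyme, with the replicate block in wild type arrays. Calls over all probes for this difference, 260 of 28338 in the report, rose in these settings too. They were 391 of 21124 with the olfactory receptor filter, 473 without the trend and 455 with array weights. The mean of a gene's probes gave 268 of 23200, the block over all arrays 402 and that in wild type arrays 1241. The replicate blocks changed no other count of called synthetases by over 1.5 times.

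Leaving out 1 array gave these ranges. After siPRMT1 in AE9a cells, 8 to 12 cytosolic and 1 to 6 mitochondrial enzymes were called, the cytosolic median lay between -0.46 and -0.36, and PRMT1 lay between -0.69 and -0.55 (adjusted p from 0.00512 to 0.0842). In wild type cells 0 cytosolic and 0 to 1 mitochondrial enzymes were called, with medians from -0.02 to 0.08 and from -0.00663 to 0.19. For the difference between lines, 2 to 4 cytosolic enzymes were called, with a mitochondrial median from 0.0688 to 0.27. For AE9a against wild type, 5 to 7 cytosolic and 6 to 9 mitochondrial enzymes were called under control siRNA, with medians from 0.05 to 0.16 and from -0.35 to -0.21. Under PRMT1 siRNA 7 to 11 and 3 to 10 were called. Calls over all 28338 tested probes moved with the array left out too. They ran from 2086 to 5074 after siPRMT1 in AE9a cells, from 0 to 840 in wild type cells and from 83 to 349 for the difference. For AE9a against wild type they ran from 5818 to 7646 under control siRNA and from 5479 to 7994 under PRMT1 siRNA. Fitting only the arrays compared gives no value for the difference between lines. Slide as a block was not run, since the table names no slides. With 3 arrays a group and no detection p-values, dim probes such as that of AIMP1 give little precision, and the causes of these changes were not tested.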

Other observations

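Genes that act beside the synthetases were counted between the lines too. Of the 17 tested proteins that handle charged tRNA, 5 were lower and 0 higher in AE9a than in wild type cells under control siRNA, and 6 were lower and 0 higher under PRMT1 siRNA, with medians of -0.18 and -0.01. Over all tested genes 17.1% were lower and 16.3% higher under control siRNA, and 16.2% lower and 14.6% higher under PRMT1 siRNA. GATB, a subunit of the mitochondrial amidotransferase that completes the glutamine tRNA after EARS2, was lower by -0.86 ± 0.12 under control siRNA and -0.93 ± 0.12 under PRMT1 siRNA. It read 8.74, 8.74 and 8.84 in AE9a siPRMT1 arrays, against 9.80, 9.71 and 9.59 in wild type siPRMT1 arrays. EEF1D, a subunit of the cytosolic elongation factor complex, was lower by -1.04 ± 0.11 and -0.86 ± 0.11 under the same siRNAs, and SEPSECS, the last enzyme of selenocysteinyl-tRNA synthesis, by -0.68 ± 0.11 and -0.73 ± 0.11. Among 14 tested genes in the amino acid sensing pathway of mTORC1, 4 were higher and 4 lower under control siRNA, beside the same background of 16.3% and 17.1%.

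The integrated stress response genes of wild type control 3 stood apart from those of the other wild type controls, with a centred median of 0.43 against 0.01 and 0.02. Without that array 3 of the 25 tested stress response genes were called after siPRMT1 in wild type cells, all higher. Of all 28338 tested probes, 401 were called higher and 439 lower in that fit. For the difference between lines, 16 of the 25 were called lower in place of 11, beside 212 of all tested probes in place of 175. The array was singled out in these data for its place on the second principal component and for its high values of these genes. Leaving it out lowers their wild type control level. The direction of both changes was thus largely set by that choice, and no conclusion is drawn from these counts.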
